A study of Mus musculus with 9 samples.

Results

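Testis RNA of Prm2-/Δc males was compared with that of Prm2+/Δc males, which takes in 6 of the 9 libraries of the series, 3 of each genotype. The libraries were chosen by their genotype label alone, which reads het for Prm2+/Δc and hom for Prm2-/Δc. The remaining 3 libraries, from WT testes, entered a fit only where one of all 9 libraries is named. Their levels are given for some of the genes and loci, for reference. All mice are labelled with a C57BL/6 background, and the study used males between 10 and 13 weeks old. Prm2Δc is an allele edited with CRISPR/Cas9 so that it lacks the coding region of cP2, the part of protamine 2 that is cleaved off, and keeps the region of mature protamine 2. Prm2+/Δc males carried 1 such allele and 1 WT allele. Prm2-/Δc males carried 1 such allele too, and their other allele was a deletion of Prm2 from a separate, earlier mouse line that was bred in. The edited founders came from B6D2F1 oocytes, and the line was then crossed to C57Bl/6J for 3 or more generations. The groups therefore share the edited allele and differ in the other one, together with the stretch of chromosome 16 that was inherited with it. The labels number the libraries of a group without saying that each came from a separate animal, so the tests measure the spread between these samples, whatever its source.

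In elongating spermatids most histones on the DNA give way to protamines, which are short and rich in arginine. Transition proteins take part in this exchange beforehand. Protamine 1 is made in its mature form, while protamine 2 is made as a precursor whose N-terminal domain is removed stepwise once it is bound to DNA. In the mouse, the genes of both protamines lie in 1 cluster with Tnp2 and Prm3 and are transcribed in round spermatids. The sequences that define the edited allele are the targets of both guides, since every library compared here carries an allele made with them. They are printed in lower case with the motif that Cas9 needs beside its target in capitals.
Guide 1: cctcattcggtagcgaaccaTGG
Guide 2: ggactatgggaggacacacAGG
Guide 1 matches 20 bases of the plus strand of GRCm38 at chr16:10791978-10791997, and guide 2 matches 19 bases of the minus strand at chr16:10791867-10791885, both in the coding part of exon 1 of Prm2. The coding strand from the outer end of the first target to that of the second spans 131 bases at chr16:10791867-10791997 on the minus strand, with the target bases in capitals and 92 bases between them.
Stretch from the first to the second target: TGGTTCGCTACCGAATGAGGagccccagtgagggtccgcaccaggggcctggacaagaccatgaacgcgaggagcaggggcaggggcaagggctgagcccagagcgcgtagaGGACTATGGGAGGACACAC

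None of the abundant loci in the interval that holds Prm2 passed the test between the groups. Between the named loci 1700037C18Rik and Gm15738 on chromosome 16 lie 104 loci, and 6 of them had at least 5000 normalized counts in each of the 6 libraries. Normalized counts are estimated counts per locus divided by the size factor of the library. The files do not pair any of these loci with Prm2, so they are given by locus number. MSTRG.8527 had 92847, 101271 and 106746 normalized counts in Prm2+/Δc testes and 115288, 115348 and 128477 in Prm2-/Δc testes, in the order of the replicate numbers. Each Prm2-/Δc library was above each Prm2+/Δc library, and the WT libraries, with 109802, 100886 and 122024, reached into both ranges. Its log2 fold change was 0.25 (standard error 0.106, unadjusted p = 0.053 in edgeR). MSTRG.8525 had 71329, 83051 and 78966 normalized counts in Prm2+/Δc and 91088, 89963 and 83240.0 in Prm2-/Δc testes, again without overlap, with a log2 fold change of 0.17. These are 2 of the 6 loci with all Prm2-/Δc libraries on the higher side, beside 4.71% of all loci tested. The other 4 overlapped between the groups, with log2 fold changes of -0.15 for MSTRG.8473, 0.02 for MSTRG.8514, -0.01 for MSTRG.8526 and 0.37 for MSTRG.8528. In MSTRG.8528 the Prm2-/Δc libraries held 162399, 206012 and 435441 normalized counts, and those of Prm2+/Δc 186479, 201693 and 234251. The highest value there was that of Prm2-/Δc replicate 3, and without that library the log2 fold change was -0.18. Counts of a whole gene add up both alleles, so these levels do not check the genotype labels.

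Replicate 3 of Prm2-/Δc differed from the other libraries in its most abundant locus and in how many calls were made without it. Pearson's r across loci of log2 values (genes are not independent replicates) ranged from 0.910 to 0.923 within Prm2+/Δc, from 0.875 to 0.913 within Prm2-/Δc, and from 0.893 to 0.914 for pairs of libraries across the groups. Replicate 3 of Prm2-/Δc correlated less with replicates 1 and 2 of its own group (r = 0.875 and 0.887) than with each library of Prm2+/Δc (0.893, 0.895 and 0.901). Its mean r with the other 8 libraries was 0.889, the lowest of the 9, beside 0.893 for WT replicates 1 and 2 and 0.894 for Prm2-/Δc replicate 1. Its most abundant locus was MSTRG.8528, with 3.23% of its counts, whereas MSTRG.9667 led the other libraries of both groups with 6.53% and 6.77% in Prm2-/Δc replicates 1 and 2 and with 6.72%, 6.47% and 10.6% in Prm2+/Δc replicates 1, 2 and 3. Its total of 12409510 counts lay between the 12041708 of Prm2+/Δc replicate 1 and the 14789266 of Prm2-/Δc replicate 1. The part of this library in the results was not tested beyond leaving it out, and values without it are given for genes and loci of this report that passed the test only then.

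Across the transcriptome, levels in Prm2-/Δc and Prm2+/Δc testes lay close together, and 2 loci passed the test. Slc25a3, the mitochondrial carrier that brings phosphate into the matrix for ATP synthesis, and the unnamed locus MSTRG.677 on chromosome 1 were higher in Prm2-/Δc testes. Of 17986 loci tested with edgeR's quasi-likelihood test (called where the Benjamini-Hochberg adjusted p was under 0.05 and the log2 fold change was beyond 1 in size), these 2 are 0.0111%, and 0 (0.00%) were lower. At an unadjusted p under 0.05, edgeR had 310 higher (1.72%) and 423 lower (2.35%). DESeq2 called 49 higher (0.172%) and 59 lower (0.207%) of 28529 loci, both edgeR calls among them. Of the 66 tested genes and loci named by rule, DESeq2 called 33 that edgeR did not, which include Krcc1, Ndufa5, Tprn, Fkbp4, Mgst1, Ube2f, Derl2, Rpa1 and each one with 0 counts in all libraries of a group. The groups did not overlap at 848 loci with higher (4.71%) and 971 with lower levels (5.40%) in Prm2-/Δc testes. Both conditions together, no overlap and an unadjusted p under 0.05, held for 265 higher and 377 lower loci, of which 32 and 47 had a name. Only 1867 of the loci tested had a name, so most of the differences cannot be given by gene. The median log2 fold change was 0.00. The plot of fold change against abundance shows the 2 called loci against the spread of all others.

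**Figure D1:**
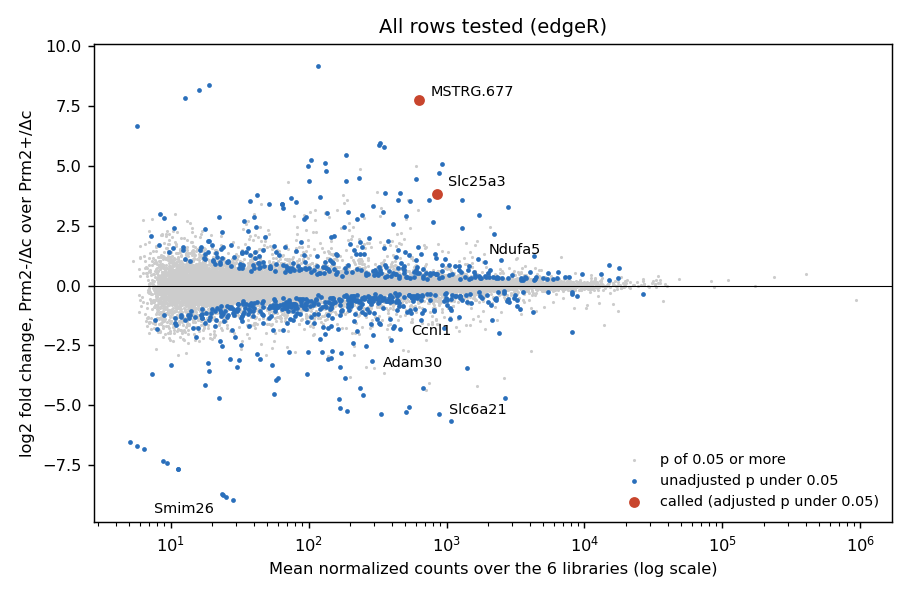
Log2 fold change of Prm2-/Δc over Prm2+/Δc testes (vertical axis) against mean normalized counts over the 6 libraries (horizontal log axis), 1 point per locus tested. Blue points have an unadjusted p under 0.05 in edgeR (310 higher, 423 lower) and red points mark the 2 called loci.

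Slc25a3 (chr10:91116574-91124059, minus strand) had 114, 124 and 94.5 normalized counts in Prm2+/Δc testes and 1593, 1423 and 1788 in Prm2-/Δc testes, beside 1628, 1563 and 1422 in WT. The Prm2-/Δc and WT libraries were high and the Prm2+/Δc libraries low, without overlap. The difference on the log2 scale was 3.85 (standard error 0.182, adjusted p = 0.0078 in edgeR's quasi-likelihood test (Benjamini-Hochberg)). The loci on its sides did not move with it. MSTRG.2634 had a log2 fold change of -0.32 and MSTRG.2637 of 0.03, while MSTRG.2633 and MSTRG.2636 had 0 counts in all 9 libraries. MSTRG.677, which lies between the named loci Sgk3 and Ube2f on chromosome 1, had 10.2, 4.29 and 3.52 normalized counts in Prm2+/Δc and 1121, 1024 and 1658 in Prm2-/Δc testes. WT libraries were on both sides of this gap, with 7.48 and 14.5 in replicates 1 and 2 and 815 in replicate 3. The log2 fold change came to 7.76 (standard error 0.484, adjusted p = 0.0215 in the same edgeR test, Benjamini-Hochberg adjusted), beside 0.03 for MSTRG.676 and -0.58 for MSTRG.678. Slc25a3 was not called without Prm2+/Δc replicate 2 or 3 (Benjamini-Hochberg adjusted p from edgeR of 0.0528 and 0.0929, within 0.00244 to 0.0929 over the 6 libraries left out in turn), and was called in a fit of all 9 libraries (adjusted p = 0.000113 in edgeR). MSTRG.677 was not called without Prm2+/Δc replicate 2 or 3 or Prm2-/Δc replicate 2 (adjusted p = 0.111, 0.179 and 0.0516 in edgeR with Benjamini-Hochberg adjustment, within 0.00577 to 0.179), nor in that fit of all 9 libraries (adjusted p = 0.9996 in edgeR).

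Several genes, Adam30 and Ccnl1 among them, were low in all 3 Prm2-/Δc libraries without passing the test. Adam30, a testis-expressed member of the family of membrane metalloproteases that includes the fertilins, had 468, 494 and 592 normalized counts in Prm2+/Δc and 40.6, 67.4 and 66.3 in Prm2-/Δc testes. Its WT libraries had 506, 627 and 583, so Prm2-/Δc stood apart from all 6 others. On the log2 scale its difference was -3.16 (standard error 0.264, adjusted p = 0.0651 in edgeR's quasi-likelihood test (Benjamini-Hochberg)), and between -3.28 and -2.95 with each library left out in turn. It passed without Prm2-/Δc replicate 1 (adjusted p = 0.0417 in edgeR with Benjamini-Hochberg adjustment) or replicate 3 (0.0289), within a range of 0.0289 to 0.179. It also passed without the filter on low counts (adjusted p = 0.0477 in edgeR), in a fit of all 9 libraries (0.00569) and in DESeq2. Ccnl1, which encodes cyclin L1, a partner of kinases that act in pre-mRNA splicing, had 563, 803 and 800.1 normalized counts in Prm2+/Δc and 215, 198 and 204 in Prm2-/Δc testes. WT levels of 685, 752 and 959 again lay with Prm2+/Δc. Between the groups the log2 fold change came to -1.82 (standard error 0.187, adjusted p = 0.0915 in edgeR with Benjamini-Hochberg adjustment). Ccnl1 passed in the fit of all 9 libraries (adjusted p = 0.0399 in edgeR) and in DESeq2. Reads of Gm37305, on the other strand, overlap Ccnl1 and could have been counted with it.

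Slc6a21, a member of the family of sodium-coupled transporters of neurotransmitters and amino acids, had 1794, 1639 and 1699 normalized counts in Prm2+/Δc and 58.9, 50.1 and 15.2 in Prm2-/Δc testes. The groups did not overlap, but WT replicate 3, with 40.2, lay with Prm2-/Δc, and WT replicates 1 and 2, with 1932 and 2038, with Prm2+/Δc. On the log2 scale it differed by -5.37 (standard error 0.50, adjusted p = 0.0711 in edgeR's quasi-likelihood test (Benjamini-Hochberg)) and -4.98 without Prm2-/Δc replicate 3, where it passed (adjusted p = 0.00111 in the same edgeR test, within 0.00111 to 0.254 over the libraries left out). Slc6a21 passed without the filter (adjusted p = 0.0477 in edgeR) and in DESeq2 too, but not in the fit of all 9 libraries (adjusted p = 0.985 in edgeR). Fam102a had 416, 349 and 352 normalized counts in Prm2+/Δc against 3.86, 19.7 and 5.43 in Prm2-/Δc testes, with 338, 369 and 332 in WT. Every Prm2-/Δc library was thus below every other one (log2 fold change -5.22, standard error 0.61, adjusted p = 0.112 in edgeR). With each library left out in turn this fold change was between -6.30 and -4.84, and it was -6.30 without Prm2-/Δc replicate 2. Fam102a passed without that library (adjusted p = 0.0202 in edgeR with Benjamini-Hochberg adjustment, within 0.0202 to 0.324), in the fit of all 9 libraries (0.0399) and in DESeq2. Prr13, chosen after its values were seen, had 99.5, 136 and 104 normalized counts in Prm2+/Δc and 5.80, 9.86 and 7.60 in Prm2-/Δc testes (log2 fold change -3.84), and passed without Prm2-/Δc replicate 3 (adjusted p = 0.0347 in edgeR). In WT testes it had 144, 123 and 17.2, so that replicate 3 again lay nearer to Prm2-/Δc. Krcc1 varied widely within Prm2+/Δc, with 2072, 389.7 and 533 normalized counts, and had 9.66, 10.7 and 56.5 in Prm2-/Δc testes. Krcc1 differed by -5.29 on the log2 scale, by -6.61 without Prm2-/Δc replicate 3 and by -4.18 without Prm2+/Δc replicate 1. It passed in none of these fits in edgeR, but with all 6 libraries in DESeq2.

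A set of genes had 0 counts in all 3 Prm2-/Δc libraries, so that their folds are lower bounds. Each is the mean level of the other group over the mean of the levels that 3 counts would give in the libraries at 0. Smim26, which encodes a small mitochondrial membrane protein, had 54.3, 43.8 and 45.8 normalized counts in Prm2+/Δc and 47.9, 84.4 and 25.4 in WT testes, and was at least 16.7-fold lower in Prm2-/Δc testes. The long noncoding RNA gene 4930440C22Rik had 41.9, 54.9 and 55.7 in Prm2+/Δc testes and was at least 17.7-fold lower, with 55.4, 81.9 and 5.74 in WT. Both had an adjusted p of 0.112 in edgeR's quasi-likelihood test (Benjamini-Hochberg) and passed without Prm2-/Δc replicate 3 (0.0381 and 0.0403), and in DESeq2, but neither passed in the fit of all 9 libraries. The guanylate cyclase gene Gucy2e had 81.4, 75.5 and 12.7 normalized counts in Prm2+/Δc testes (at least 19.7-fold lower in Prm2-/Δc), and WT testes had 47.9 in replicate 1 and 0 in the others. Adar, the gene of an enzyme that edits adenosine in double-stranded RNA, had 22.6, 17.2 and 16.9 in Prm2+/Δc testes and was at least 6.58-fold lower. Its WT libraries had 0, 24.1 and 8.20, and it overlaps Chrnb2 on the other strand. For 9630041A04Rik (at least 7.90-fold lower) and the protease inhibitor gene Serpina1a (at least 6.18-fold lower), WT libraries had 0 counts as well, so only Prm2+/Δc testes had reads. Serpina1a belongs to a family of near-identical copies whose reads the counting could have split, and is uncertain for that reason. Gucy2e, Adar, 9630041A04Rik and Serpina1a did not pass in edgeR (adjusted p = 0.770, 0.398, 0.645 and 0.645), nor with any library left out. The unnamed locus MSTRG.1185 was at least 16.4-fold lower, with 47.5, 48.1 and 45.8 normalized counts in Prm2+/Δc testes. Its adjusted p in edgeR was 0.112 with all 6 libraries, and it passed without Prm2-/Δc replicate 3 (adjusted p = 0.0347 in edgeR). In the other direction, the long noncoding RNA gene E330035G20Rik had 0 counts in all Prm2+/Δc libraries and 12.6, 9.86 and 11.9 normalized counts in Prm2-/Δc testes (at least 4.25-fold higher). It did not pass in edgeR (adjusted p = 0.645), nor with any library left out, and WT had 0, 8.44 and 4.10.

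Among genes with higher levels in Prm2-/Δc testes, Ndufa5 was even within both groups. It encodes a subunit of complex I of the respiratory chain and had 1077, 1104 and 1048 normalized counts in Prm2+/Δc and 2226, 2023 and 2672 in Prm2-/Δc testes. WT testes, with 1418, 1294 and 1422, lay between the groups and touched neither. This is a log2 fold change of 1.10 (standard error 0.139, unadjusted p = 0.000172 and adjusted p = 0.159 in edgeR's quasi-likelihood test (Benjamini-Hochberg)). Without Prm2-/Δc replicate 3 it was 0.97, under the cutoff on the fold change (adjusted p = 0.0287 in edgeR). Ndufa5 passed in DESeq2 with all 6 libraries. Tprn, which encodes taperin, a protein of the base of the stereocilia in hair cells, had 38.5, 60.1 and 59.2 normalized counts in Prm2+/Δc and 1656, 1591 and 209 in Prm2-/Δc testes. Fkbp4, a co-chaperone of steroid receptors, had 446, 592 and 486 in Prm2+/Δc and 6864, 7298 and 996 in Prm2-/Δc testes. At both genes replicate 3 was the lowest of the Prm2-/Δc libraries yet above Prm2+/Δc, and WT lay with Prm2+/Δc (49.2 to 66.3 for Tprn and 436 to 502 for Fkbp4). Their log2 fold changes were 4.43 and 3.30 with all 6 libraries. Neither passed there (adjusted p = 0.493 and 0.740 in edgeR with Benjamini-Hochberg adjustment), but DESeq2 called both. Of the edgeR fits with a library left out, both passed only without Prm2-/Δc replicate 3. Their log2 fold changes were then 4.92 and 3.79 (adjusted p = 0.00313 and 0.0019 in edgeR).

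The glutathione transferase gene Mgst1 had 7.92, 2.57 and 6.34 normalized counts in Prm2+/Δc and 91.8, 126 and 18.5 in Prm2-/Δc testes, beside 198, 169 and 102 in WT. Its log2 fold change was 3.80 (adjusted p = 0.703 in edgeR), and 4.26 without Prm2-/Δc replicate 3 (adjusted p = 0.0545 in edgeR). Prm2+/Δc libraries were the low ones here, as at Slc25a3. Ube2f, an enzyme that attaches the ubiquitin-like protein NEDD8, had 58.8, 70.4 and 48.6 in Prm2+/Δc and 1348, 1098 and 138 in Prm2-/Δc testes, and WT ranged from 168 to 1358. Its log2 fold change was 3.85 with all 6 libraries (adjusted p = 0.703 in edgeR). Ube2f passed without Prm2-/Δc replicate 3 (log2 fold change 4.35, adjusted p = 0.00345 in edgeR). Myl9, a smooth muscle myosin light chain, was low in 1 library of Prm2-/Δc as well, with 675, 11.5 and 405 normalized counts. It had 4.52, 7.72 and 11.3 in Prm2+/Δc testes, and 572, 504 and 6.56 in WT. The same uneven pattern within Prm2-/Δc was seen at 4930432K21Rik (16.4, 1210.1 and 835), Yjefn3 (20.3, 504 and 546) and Gm20605 (919, 116 and 817 in Prm2-/Δc testes). With all 6 libraries 4930432K21Rik and Yjefn3 did not pass (adjusted p = 0.914 and 0.966 in edgeR). Of the fits with a library left out, they passed only without Prm2-/Δc replicate 1 (adjusted p = 0.0186 for each in edgeR). That library was the low one at both, so passing without it is no further support. At these 4 genes the groups did not overlap, but the lowest Prm2-/Δc library was only just above the highest one of Prm2+/Δc. Yjefn3 overlaps Ndufa13 and Tssk6, and Gm20605 overlaps Lrch4 and Sap25, so reads could belong to either gene. Of the 68 genes and loci named by rule, 56 have coordinates, 32 of these overlap another annotated gene and 25 one on the other strand.

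**Figure D2:**
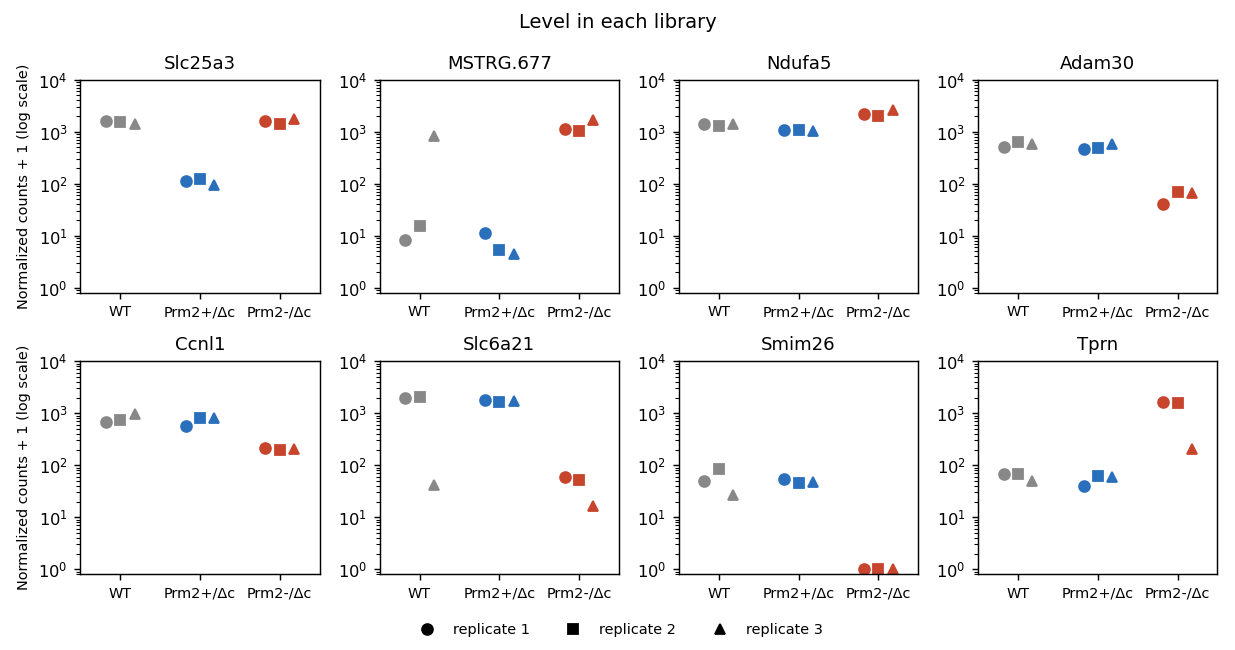
Normalized counts plus 1 (vertical log axis) of 8 genes and loci in each library, by group, with a marker for each replicate number. Slc25a3 was low in all Prm2+/Δc libraries, Adam30, Ccnl1 and Smim26 were low in all Prm2-/Δc libraries, and Tprn was lower in Prm2-/Δc replicate 3 (209) than in replicates 1 and 2.

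Where the groups parted by over 2-fold, the side of each WT library was counted. Loci were counted as parted where the unadjusted p was under 0.05 in edgeR and the lowest library of one group had over 2 times the highest of the other. This held for 25 higher and 45 lower of the 17986 loci tested. Of these 70, 25 had a name. All 3 WT libraries were nearer to Prm2+/Δc at 13 loci and nearer to Prm2-/Δc at 7, and at 50 the WT libraries fell on both sides. Each library had to be nearer to one group or the other, so a split among 3 arises easily. The sides were not counted over all loci, so the 50 are not a trait of these loci. WT replicate 3 was nearer to Prm2-/Δc at 39 of the 70 loci, against 22 and 26 for WT replicates 1 and 2, and at 21 loci it was the only WT library nearer to Prm2-/Δc. Over all loci its r was 0.888 and 0.893 with the other WT libraries and 0.924 with Prm2-/Δc replicate 2, the highest of the 36 pairs of libraries. Among the 45 lower loci, WT was nearer to Prm2+/Δc at 12 and to Prm2-/Δc at 3. Among the 25 higher loci these counts were 1 and 4. The map of the 25 named genes shows Adam30, Ccnl1, Fam102a and Gm15738 with WT levels like those of Prm2+/Δc, and Slc25a3, Mgst1 and Hexdc with WT levels like those of Prm2-/Δc testes. Gm15738 and Hexdc were chosen after their values were seen. Assembled loci took their names from the study's sheets of differences from WT, made on these same libraries. The side of WT at these named loci is therefore not independent of that choice, and the counts above include them. MSTRG.332 and MSTRG.15303 are unnamed examples with WT replicate 3 on the side of Prm2-/Δc. MSTRG.332 had 1 count in all Prm2+/Δc libraries together and 355, 122 and 226 normalized counts in Prm2-/Δc testes, while WT had 2.99, 1.21 and 133. MSTRG.15303 had 9.05, 9.44 and 14.1 in Prm2+/Δc and 94.7, 131 and 129 in Prm2-/Δc testes, and 13.5, 10.8 and 98.4 in WT. With all 6 libraries neither passed (adjusted p = 0.0711 for each in edgeR). Both passed without Prm2-/Δc replicate 3 (adjusted p = 0.0403 for MSTRG.332 and 0.0352 for MSTRG.15303 in edgeR).

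**Figure D3:**
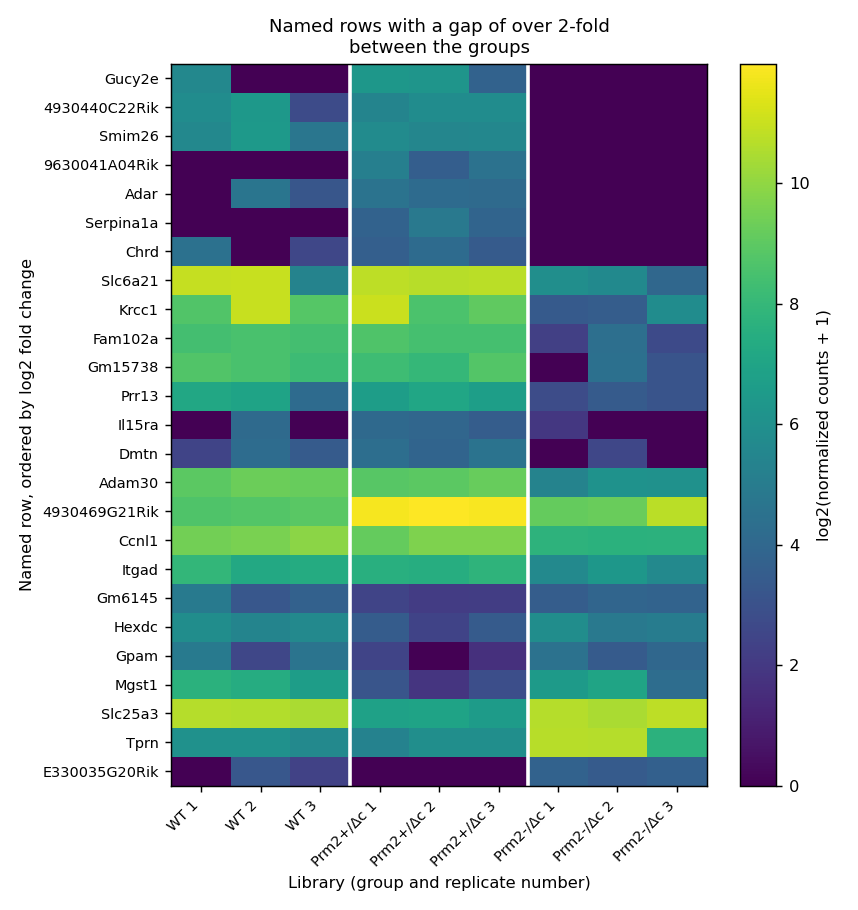
Level of the 25 named genes whose groups parted over 2-fold (rows, ordered by log2 fold change), as log2 of normalized counts plus 1, in each of the 9 libraries (columns). The 18 genes in the upper part had lower and the 7 in the lower part higher levels in Prm2-/Δc libraries, and WT columns match neither group throughout.

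Many loci varied between libraries of 1 genotype. Of 12474 loci with a mean of at least 50 normalized counts, 774 (6.20%) varied over 4-fold among the Prm2+/Δc libraries, 1112 (8.91%) among the Prm2-/Δc libraries and 906 (7.26%) among the WT libraries. A gap over 4-fold between all libraries of one mutant group and all of the other was found at 8 higher (0.0641%) and 10 lower (0.0802%) loci. This measure is stricter by construction, since every pair of libraries across the groups has to pass it, and its counts cannot be set against those within a group. The median ratio of the highest to the lowest library was 1.27 in Prm2+/Δc, 1.48 in Prm2-/Δc and 1.37 in WT testes. Rpa1, a subunit of the protein that coats single-stranded DNA in replication and recombination, is an example, with 35.1, 1629.9 and 1454 normalized counts in Prm2+/Δc and 34.8, 37.0 and 21.7 in Prm2-/Δc testes. Its groups overlapped because Prm2+/Δc replicate 1 was as low as the Prm2-/Δc libraries. With all 6 libraries Rpa1 did not pass (adjusted p = 0.966 in edgeR). Of the fits with a library left out, it passed only without that replicate (adjusted p = 0.0168 in edgeR). Cdc23, a subunit of the anaphase-promoting complex, had 679, 78.1 and 585 in Prm2+/Δc and 79.2, 78.0 and 73.9 in Prm2-/Δc testes. Here Prm2+/Δc replicate 2 was at the level of Prm2-/Δc.

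Genes were grouped by function from those named in the study's sheets of differences from WT, made on these same libraries, so the groups are not independent evidence of a direction. Beside each count stand those of all loci tested, 310 higher and 423 lower of 17986 at an unadjusted p under 0.05 in edgeR, with a median log2 fold change of 0.00. In the group of mitochondria and metabolism, 8 of 19 genes tested were higher and 5 lower at this threshold, with a median of 0.97. Slc25a3, Ndufa5, Mgst1 and Yjefn3 were among the higher and Smim26 among the lower members. Germ cell genes had 3 higher and 2 lower of 10, with a median of 0.72. Ttll6, an enzyme that adds glutamate chains to tubulin of axonemes, had 271, 342 and 507 normalized counts in Prm2+/Δc and 656, 759 and 1383 in Prm2-/Δc testes (log2 fold change 1.32), and WT levels were between 727 and 1619.5. M1ap, a gene needed for meiosis in males, had 109.7, 154 and 169.9 in Prm2+/Δc and 157, 527 and 394 in Prm2-/Δc testes, where replicate 1 overlapped the other group.

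Solute carriers and ion channels had 2 higher and 2 lower of 7, with a median log2 fold change of -0.79, and chromatin and transcription genes 2 and 2 of 12, with a median of -0.21. Stat5a, a transcription factor of cytokine signalling, had 28.3, 16.3 and 29.6 normalized counts in Prm2+/Δc and 87.9, 47.6 and 72.8 in Prm2-/Δc testes, without overlap (log2 fold change 1.48). RNA processing and ribosome genes had 2 and 2 of 10 (median -0.15). Within it Ccnl2, a close relative of Ccnl1, had 137, 148 and 95.2 normalized counts in Prm2+/Δc and 259.8, 218 and 464 in Prm2-/Δc testes, the opposite order to Ccnl1. Kinases and signalling genes had 2 and 2 of 9 (median 0.01). Among them Uhmk1, a kinase that phosphorylates splicing factors, had 190.0, 136 and 128 in Prm2+/Δc and 67.6, 64.1 and 70.6 in Prm2-/Δc testes, without overlap (log2 fold change -1.17, unadjusted p = 0.00175 in edgeR). Genes of the ubiquitin and proteasome group had 2 higher and 1 lower of 12 (median 0.10), and those of DNA replication, recombination and cell cycle 1 and 3 of 9 (median 0.16). Derl2, a factor that exports misfolded proteins from the endoplasmic reticulum, had 155, 88.4 and 107 against 1028, 910.2 and 168 normalized counts, and Prm2-/Δc replicate 3 was again nearest to Prm2+/Δc. Without that replicate it passed (log2 fold change 3.04, adjusted p = 0.0252 in edgeR). With all 6 libraries the log2 fold change of Derl2 was 2.58 (adjusted p = 0.966 in edgeR). None of the 12 membrane trafficking genes had an unadjusted p under 0.05 in edgeR (0 higher, 0 lower, median 0.07).

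Of the 9 genes the study listed for both genotypes, 7 were tested here, and at an unadjusted p under 0.05 edgeR had 0 of them higher and 1 lower, beside 310 (1.72%) and 423 (2.35%) of all loci. They were chosen on these libraries for a shared difference from WT. Pcgf5, a Polycomb group RING finger protein, had 268, 199 and 259 normalized counts in Prm2+/Δc and 101, 188 and 136 in Prm2-/Δc testes, with 7.48, 10.8 and 5.74 in WT. The mutant groups did not overlap, and the log2 fold change between them was -0.77 (unadjusted p = 0.0287 in edgeR), without passing the adjusted test. For Rps20, a protein of the small ribosomal subunit, the groups overlapped, with 4248, 5235 and 4581 against 5410.1, 3192 and 6067 (log2 fold change 0.06, standard error 0.248). Gm37933 had a log2 fold change of 0.17, Ptpa of 0.59, Eri3 of -0.17 and Ergic2 of -0.34. Rnf167 was uneven in both groups, with 26.0, 479.8 and 439 in Prm2+/Δc and 477, 28.8 and 394 in Prm2-/Δc testes. Gm37493 had 0 counts in all 6 libraries. Fam110b had 5.66, 6.01 and 2.11 normalized counts in Prm2+/Δc against 4.83, 3.29 and 9.78, with overlap. The filter on low counts kept neither gene for the test.

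Among loci that could be placed on a chromosome, those of chromosome 16, which carries Prm2, had a larger share with an unadjusted p under 0.05 than those of the 19 others. Assembled loci were placed only where the nearest named loci on both sides lie on 1 chromosome, and 4281 of 17986 loci tested had no place. For chromosome 16 this covers the loci from 1700037C18Rik to Zfp148 and 53 rows with an Ensembl identifier. Of its 283 loci tested in edgeR, 3 had higher and 19 had lower levels in Prm2-/Δc libraries, together 7.77%, whereas the 19 other chromosomes had between 1.22% and 5.58%. All loci placed elsewhere together had 240 higher and 304 lower of 13422 (4.05%). Without Prm2-/Δc replicate 3, a count made after the values were seen, chromosome 16 had 7 higher and 27 lower, again a larger share than the 5.18% to 10.7% of the 19 others, and all loci placed elsewhere had 8.82%. Levels without overlap were found at 12 higher (4.24%) and 28 lower (9.89%) loci of chromosome 16, beside 4.71% and 5.40% of all loci. By place along the chromosome, with stretches chosen after the values were seen, the 53 loci from 1700037C18Rik to MSTRG.8528, the last abundant locus of the interval that holds Prm2, had 0 higher and 0 lower in edgeR at this threshold. The 177 loci after MSTRG.8528 up to Zfp148 had 3 higher and 15 lower (10.2%), with a median log2 fold change of -0.04. Without Prm2-/Δc replicate 3 the shares were 11.3% up to MSTRG.8528 (2 higher, 4 lower) and 14.1% after it (5 higher, 20 lower), beside 8.88% of all loci. The place of Prm2 itself among these loci is not given by the files. The Prm2 deletion and the sequence that came with it on chromosome 16 cannot be told apart in this design.

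Gm15738, Ypel1, Pdxdc1 and Hspbap1 on this chromosome were chosen after their values were seen. The next named locus after MSTRG.8528, the antisense RNA gene Gm15738 (chr16:13354374-13468755), had 302, 252 and 438 normalized counts in Prm2+/Δc and 0, 20.5 and 7.60 in Prm2-/Δc testes. WT had 420.4, 375 and 299, so Prm2-/Δc stood below all other libraries (log2 fold change -5.09, unadjusted p = 0.00184 in edgeR). Ypel1 (chr16:17069696-17087045) had 3901, 4061 and 4469 in Prm2+/Δc and 2657, 1953 and 2372 in Prm2-/Δc testes. Here WT, with 2497, 2100.3 and 2009.7, lay with Prm2-/Δc, and Prm2+/Δc was the group apart (log2 fold change -0.84, adjusted p = 0.379 in edgeR's quasi-likelihood test (Benjamini-Hochberg)). Zfp148, a zinc finger transcription factor (chr16:33380836-33504363), had the opposite order, with 162, 116 and 124 in Prm2+/Δc and 459, 313 and 241 in Prm2-/Δc testes, beside WT levels of 290.4 to 385 (log2 fold change 1.33). Pdxdc1 overlapped between the groups, with 376, 855 and 1636 against 438, 445 and 182. Of the genes with an Ensembl row, Chrd, which encodes the BMP antagonist chordin, had 11.3, 17.2 and 9.87 normalized counts in Prm2+/Δc testes and 0 in Prm2-/Δc (at least 4.45-fold lower, adjusted p = 0.649 in edgeR), and overlaps Thpo on the other strand. Its WT libraries had 20.9, 0 and 4.92. Hspbap1 had 22.6, 44.6 and 76.1 against 10.6, 13.1 and 8.69 (log2 fold change -2.14).

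**Figure D4:**
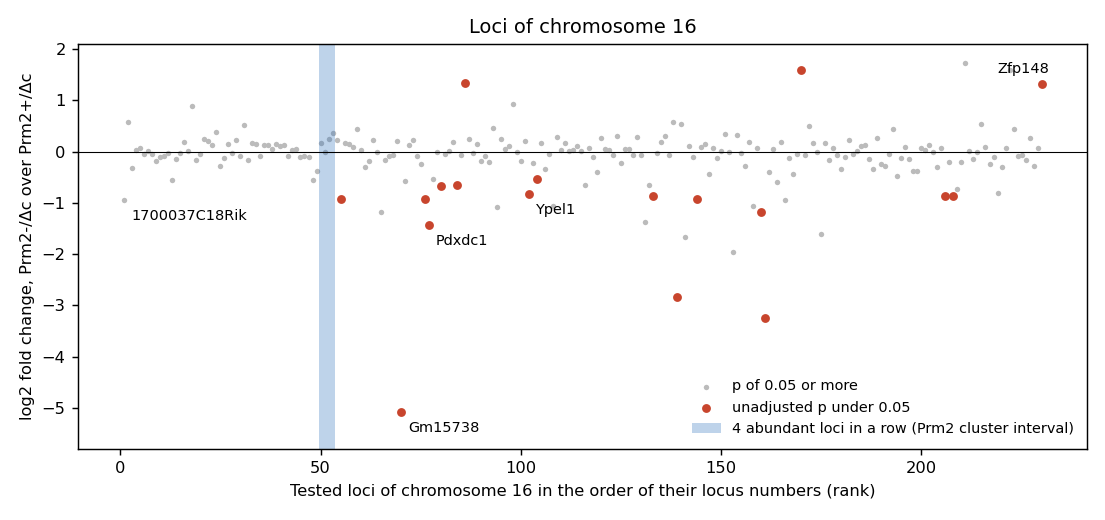
Log2 fold change of Prm2-/Δc over Prm2+/Δc testes (vertical axis) for tested loci of chromosome 16 in the order of their locus numbers (horizontal axis, rank). Red points have an unadjusted p under 0.05 in edgeR and the band marks 4 abundant loci of the Prm2 interval, with 0 of 53 loci up to its end in red, and 3 higher and 15 lower of 177 after it.

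Leaving out Prm2-/Δc replicate 3 raised the calls of edgeR from 2 to 16 higher and from 0 to 54 lower loci. These 70 held both calls of all 6 libraries, and 14 had a name. At 53 of the 70, and at 8 of the 14 named, the library left out lay nearer to the other group. Crem, the transcription factor that activates spermatid genes, had 2505, 2822 and 2389 normalized counts in Prm2+/Δc testes and 311, 375 and 2048 in Prm2-/Δc testes, with 446, 439.8 and 1084 in WT. Prm2-/Δc replicate 3 was thus close to Prm2+/Δc, and without it the log2 fold change was -2.92 (adjusted p = 0.00373 in edgeR's quasi-likelihood test (Benjamini-Hochberg)), against -1.49 with it. 4930469G21Rik had 3671, 4048 and 3768 in Prm2+/Δc and 562, 611 and 1725 in Prm2-/Δc testes, beside 405, 434 and 481 in WT. Its log2 fold change was -2.72 without and -1.98 with that replicate. Fn1, which encodes fibronectin, had 38.5, 44.6 and 49.3 in Prm2+/Δc testes. Its Prm2-/Δc replicates 1 and 2 were at 0 and replicate 3 at 61.9. Without replicate 3 it passed (adjusted p = 0.0440 in edgeR), and with it the log2 fold change was -1.12. These genes were chosen after their values were seen.

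Markers of testicular and other cells could be followed only in part, since few of their loci carry a name. Of the 6 markers of peritubular myoid cells 1 had a named row, Myl9. It was the one marker of any list with an unadjusted p under 0.05 in edgeR (log2 fold change 5.47), beside 4.08% of all loci tested. Its locus has a name only through the study's sheets of differences from WT, made on these same libraries. The share of all loci is therefore no fair measure for it. Without Prm2-/Δc replicate 1 the log2 fold change of Myl9 was 4.69, and without replicate 2 it was 6.04. Prm2-/Δc replicates 1 and 3 were high and replicate 2, with 11.5 normalized counts, was not, and its part in other results was not tested. Of 10 spermatogonial markers 3 had a named row, and none had an unadjusted p under 0.05 in edgeR (0 of 3, against the same 4.08%). Kit, the receptor of differentiating spermatogonia, had 53.2, 26.6 and 55.0 normalized counts in Prm2+/Δc and 53.1, 15.6 and 36.9 in Prm2-/Δc testes, with overlap. The log2 fold changes of Zbtb16 and Sall4 were 0.37 and -0.61. The summed level of these 3 was 106, 97.0 and 139 in Prm2+/Δc and 106, 79.7 and 117 in Prm2-/Δc testes. None of the 10 markers of spermatocytes or the 10 of spermatids had a named row, so the germ cell stages that make up most of the tissue were not checked. Amh and Fshr of Sertoli cells were at 0 in every library, and Lhcgr, the luteinizing hormone receptor of Leydig cells, had 14.7, 11.2 and 6.34 in Prm2+/Δc and 11.6, 17.3 and 19.6 in Prm2-/Δc libraries. Hbb-bs, a globin of red blood cells, had 783, 1010.2 and 1415 against 567, 688 and 1137, with overlap (log2 fold change -0.42). Of macrophage markers 2 of 9 had a row, with a summed level of 40.7, 29.2 and 31.7 in Prm2+/Δc and 15.4, 36.1 and 0 in Prm2-/Δc testes. Of endothelial markers 5 of 7 had one, with 41.9, 49.8 and 40.9 against 14.5, 38.6 and 60.8. Both sums overlapped between the groups. In bulk tissue, fewer cells of a type and less RNA per cell cannot be told apart. Of 10 epididymal markers 9 had a row, and each was at 0 in every library.

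Rows with their own Ensembl identifier held 0.385% of the counts of the 6 libraries, and 1730 of 24982 were tested. At an unadjusted p under 0.05 in edgeR 12 of these were higher and 27 lower, together 2.25%, beside 4.08% of all loci. Cttnbp2, a binding partner of cortactin, had 14.7, 9.44 and 11.3 normalized counts in Prm2+/Δc and 40.6, 36.1 and 27.2 in Prm2-/Δc testes (log2 fold change 1.55). Gpam, a mitochondrial enzyme of the first step of glycerolipid synthesis, had 4.52, 0 and 2.11 against 22.2, 9.86 and 15.2, and the ephrin receptor gene Epha7 6.79, 6.87 and 3.52 against 57.0, 13.1 and 18.5. In the other direction, Il15ra, a receptor chain of interleukin 15, had 15.8, 14.6 and 10.6 in Prm2+/Δc and 2.90, 0 and 0 in Prm2-/Δc testes. The groups did not overlap at any of these genes, all at low counts, and none passed the adjusted test. Of 1347 rows of olfactory receptors 1052 had no counts and 7 were tested, with 0 higher and 0 lower at this threshold. Of the 54 rows of solute carriers and the 60 of zinc finger proteins tested, 0 were higher and 0 lower by the same measure, as were 0 of 16 collagens. Cadherins and protocadherins had 0 higher and 1 lower of 7, and predicted genes 1 higher and 3 lower of 181, beside the 2.25% of all rows with an Ensembl identifier.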

How the data were processed

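Testis RNA was made into QuantSeq 3′ mRNA libraries and sequenced as 50 base reads. Per the submitters' notes, the authors used HISAT2 2.1, StringTie 1.3.3 and DESeq2 1.16.1 on GRCm38, with the annotation of Ensembl release 89. The authors deposited estimated counts (expected counts) for each gene or assembled locus, as whole numbers without normalization, which were used as deposited. The read length given to the script that made them is not given in the sources used here, so a count need not be 1 read, and floors and bounds share this limit. Whether strand was used in counting is not given in the sources used here, so overlapping and antisense genes are uncertain. All 9 count columns have a sample. Depth was between 12041708 and 20320362 counts in the 6 libraries compared, and 3 counts correspond to between 2.11 and 3.39 normalized counts. Floors cover counting error only.

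Counts of the 6 libraries were tested with edgeR 4.0.16 in R 4.3.3 (TMM, filterByExpr, glmQLFit and glmQLFTest, Benjamini-Hochberg adjustment), and levels were scaled by the size factors that DESeq2 1.42.0 gave for the 9 libraries. The standard error of a log2 fold change was its size over the square root of F. The square root of the common dispersion was 0.43.

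Names come from 150 locus-to-name pairs of the study's gene lists and from the Ensembl identifiers of 24873 rows, so most loci are unnamed. The authors' own fold changes and p-values were not used. Guide sequences come from the study, their positions from GENCODE vM21 transcripts. Genes were named by rule: called loci; the 10 named genes and 5 Ensembl rows with the largest change per direction, and the 3 unnamed loci with the smallest p, all without overlap of the groups and with an unadjusted p under 0.05; genes listed for both genotypes; the 3 with the smallest p of each functional group; and abundant loci around Prm2. Markers come from lists of cell types. Others are said to be chosen after their values were seen. The libraries compared, the rule and the lists were chosen with earlier results of these data known.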

Additional observations from a re-analysis of the deposited data

How the results depend on the processing

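The count of loci higher in Prm2-/Δc testes was 2 in edgeR and 0 lower (310 and 423 at an unadjusted p under 0.05). DESeq2 called 49 and 59, a fit without the filter 3 and 3, and a fit of all 9 libraries 1 and 3. With each library left out in turn, the counts ranged from 0 to 16 higher and from 0 to 54 lower, and both highest counts were those without Prm2-/Δc replicate 3. Without Prm2+/Δc replicate 1, 2 or 3 they were 4, 1 and 0 higher and 4, 0 and 0 lower, and without Prm2-/Δc replicate 1 or 2 they were 7 and 3 higher and 3 and 1 lower. Other scaling, a stricter filter, a robust dispersion, counts multiplied by 1.5 (as for another read length in the estimated counts) and no cutoff on the fold change moved neither count. The cause was not tested.

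With the replicate number as a block (replicate block), edgeR called 0 higher and 0 lower, neither Slc25a3 nor MSTRG.677 passed, and MSTRG.8514 turned to -0.02. Deviations of same-numbered libraries correlated with r = 0.0137, 0.00266 and -0.0158, within -0.0197 to 0.0187 over all pairs, and not every library correlated best with its own number. Across loci no pairing by number was seen. These values cannot exclude a source shared by same-numbered samples at some loci.

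Of 985 values of single genes under these settings, 904 kept their direction and side of the threshold, 57 passed it only there, 8 no longer passed and 16 changed sign. Log2 fold changes that changed sign with a library left out ranged from -0.14 to 0.29 for Rps20, -0.02 to 0.28 for Gm37933, -0.62 to 0.46 for Rnf167, -0.43 to 0.09 for Eri3, -0.68 to 0.06 for Ergic2, -3.13 to 0.50 for Tmem41b, -0.27 to 0.15 for MSTRG.8514, -0.11 to 0.15 for MSTRG.8526 and -0.18 to 0.63 for MSTRG.8528. The cause was not tested. At these depths 3 counts correspond to between 2.11 and 3.39 normalized counts, and lower levels are not told apart from 0.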
